A study of Mus musculus with 48 samples.

Results

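*Agrp* neurons were taken here as cells with at least 1 UMI of *Agrp* and at least 3 of 6 general neuronal genes (*Stmn2*, *Tubb3*, *Snap25*, *Syt1*, *Elavl4* and *Rbfox3*). They numbered 119 of 11122 neurons and of 14121 cells in all, and 77 of them came from control embryos and 42 from *Eed-cKO* embryos. A UMI is a unique molecular identifier, which counts each captured RNA molecule once. The cells came from the hypothalamus of mouse embryos at E18.5, from 6 control embryos (*Eed* fl/fl) and 9 *Eed-cKO* embryos (*Eed* fl/fl with *Sox1-Cre*), spread over 48 droplet libraries. Both genotypes carried the floxed *Eed* allele. *Sox1-Cre* acts in the early nervous system, so that neurons and glia alike lose *Eed* early. The 6 control embryos came from 4 litters and the 9 *Eed-cKO* embryos from 6 others, so genotype and litter cannot be told apart. Control embryos 1 and 6 and *Eed-cKO* embryos 1, 4, 5, 6 and 8 were female. The other embryos were male, so sex was not balanced between the genotypes. The embryo was the replicate throughout.

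Agouti-related peptide is made by neurons of the arcuate nucleus that also release neuropeptide Y and GABA. In the adult they drive feeding, and the peptide blocks melanocortin receptors on their target cells. They sense hormones of energy balance, among them leptin, insulin, ghrelin and growth hormone. *Eed* encodes a core subunit of Polycomb repressive complex 2 (PRC2), which places the H3K27me3 mark and keeps developmental genes, such as the Hox genes, silent. GENCODE vM21 places *Agrp* (ENSMUSG00000005705.10) on the minus strand at chr8:105566698-105637393 of GRCm38, an interval that other genes overlap on both strands, among them the antisense gene *Gm38250*, and the strand setting of the counting was not given in the sources used here.

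*Npy*, the partner peptide, and *Cited1*, a transcriptional co-regulator, are shown by sequence because, among genes with more than a few UMIs, they set *Agrp* neurons far apart from other neurons in both genotypes. The 250 bases before their annotated starts are shown from RefSeq (GRCm38.p6), with each CG dinucleotide, the unit that is dense in many PRC2 target promoters, in capitals. The *Npy* window lies at chr6:49822460-49822709 on the plus strand. The *Cited1* window lies at chrX:102252182-102252431 on the minus strand and is the first of 3 listed for that gene.
Npy: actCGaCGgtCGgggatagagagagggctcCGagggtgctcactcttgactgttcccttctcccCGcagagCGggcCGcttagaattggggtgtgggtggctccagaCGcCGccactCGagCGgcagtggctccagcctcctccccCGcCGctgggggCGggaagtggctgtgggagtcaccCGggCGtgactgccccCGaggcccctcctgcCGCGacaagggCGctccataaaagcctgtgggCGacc
Cited1: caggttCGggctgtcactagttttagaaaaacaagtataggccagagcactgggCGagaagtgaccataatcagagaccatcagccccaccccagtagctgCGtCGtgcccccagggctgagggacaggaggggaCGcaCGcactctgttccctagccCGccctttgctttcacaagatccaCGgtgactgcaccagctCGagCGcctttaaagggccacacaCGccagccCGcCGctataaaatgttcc
The *Npy* window held 21 CG dinucleotides and the *Cited1* window 13, against a median of 6 over 32851 windows of this length. As many as in *Npy* were found in 16.3% of all windows, and as many as in *Cited1* in 31.5%. The letters TATAAA, searched on both strands, occurred once in the *Cited1* window and not in the *Npy* window, and in 12.4% of all windows. The letters CCAAT occurred once in the *Npy* window and not in the *Cited1* window, and in 33.8% of all windows.

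Most *Agrp* neurons carried very few UMIs of the defining gene. The count ran from 1 to 78 per cell with a median of 3 in control and 2.5 in *Eed-cKO*, which is a description, since these values chose the cells. Exactly 1 UMI was found in 49 of the 119 cells, of which 32 were control and 17 *Eed-cKO*. A further 18 cells, 9 of each genotype, held 2 to 4 UMIs. The remaining 52 cells, 36 control and 16 *Eed-cKO*, held 5 or more. The other threshold of the rule gave 14 *Agrp*-positive cells among the 1524 with exactly 3 panel genes, just inside, and 4 among the 975 with exactly 2, just outside.

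The second marker, *Npy*, which the rule did not use, separated these classes. *Npy* was detected in 32.7% of the cells with 1 UMI of *Agrp* (exact 95% interval 19.9% to 47.5%), in 66.7% of those with 2 to 4 (41.0% to 86.7%) and in 94.2% of those with 5 or more (84.1% to 98.8%). Among 11003 neurons without *Agrp* the share was 5.54%. *Cited1* went the same way, from 13.6% of neurons without *Agrp* to 42.9%, 77.8% and 100% of the 3 classes. *Calcr*, the calcitonin receptor, went from 12.0% to 42.9%, 72.2% and 92.3%. In the opposite direction, *Slc17a6*, the vesicular glutamate transporter of hypothalamic glutamatergic neurons, was detected in 55.5% of neurons without *Agrp* and in 25% of the cells with 5 or more UMIs. The intervals cover counting error only, and cells of an embryo share their source.

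**Figure D1:**
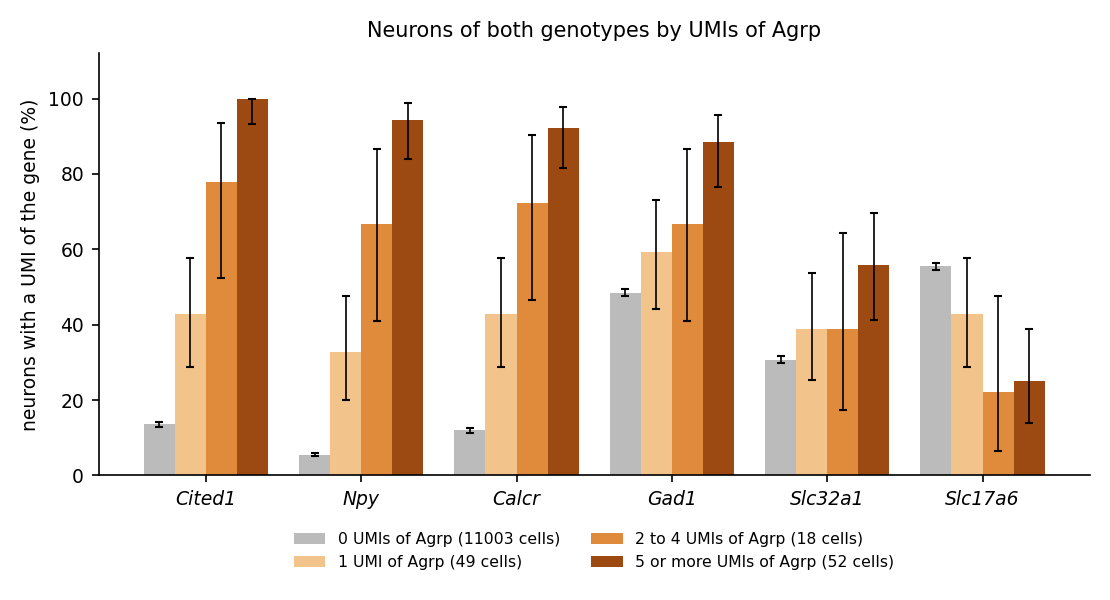
Share of neurons (%) with at least 1 UMI of 6 genes, in neurons of both genotypes grouped by their UMIs of *Agrp* (bars, with exact 95% binomial intervals). *Cited1*, *Npy* and *Calcr* climb from 13.6%, 5.54% and 12.0% in neurons without *Agrp* to 100%, 94.2% and 92.3% in cells with 5 or more UMIs, while *Slc17a6* goes from 55.5% to 25%.

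Of the 49 cells with a single UMI of *Agrp*, 26 had neither *Npy* nor *Cited1*. In cells that failed the neuronal panel, *Agrp* was found in 9 of 2999 (0.300%), and 2 of these 9 had more than 1 UMI. In 744 vascular and immune cells, which should lack the gene, it was found in none, which allows a share of up to 0.403% at a median of 3644 UMIs per cell. Neurons with *Agrp* had a median of 5636 UMIs per cell and other neurons 5033. The share of neurons with *Agrp*, 1.07%, was above both of these shares. Cells of unlike depth are compared here, since those that failed the panel had a median of 2479 UMIs and the vascular and immune cells were shallower than neurons too.

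The libraries differed in size and 1 of them held a large part of the control cells. Library totals ran from 576432 to 4513505 UMIs and from 163 to 1207 cells. The largest library, from control embryo 5, supplied 31 of the 77 control *Agrp* neurons, and values without it are given where they differ. Of 101 cell barcodes found in more than 1 library, 1 belonged to an *Agrp* neuron, and 10 of the 119 cells were among the highest 6% of doublet scores. Levels are given as CPM, the UMIs of a gene scaled to a sum of 1000000 UMIs. Over all neurons *Eed* itself was at 31.0 ± 2.32 CPM (SD, n = 6) in control and 22.9 ± 3.39 (n = 9) in *Eed-cKO*, a log2 fold change of -0.44 ± 0.10 (SE; edgeR, adjusted p = 0.00384), where 15.3% of all genes passed, 7.96% higher and 7.32% lower in *Eed-cKO*. The 3′ tags that were counted can stem from outside the deleted exons, so this checks the labels only in part.

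*Agrp* neurons were found in 14 of the 15 embryos. In control embryos 1 to 6 they made up 0.758%, 0.965%, 0.559%, 0.700%, 2.63% and 1.54% of neurons. In *Eed-cKO* embryos the share was lowest in embryo 9, with 0 of 151 neurons, had its median at 0.711% and was highest in embryo 6, at 1.3%. The genotypes overlapped widely, and the mean share was 1.19% ± 0.782 (SD, n = 6) in control and 0.727% ± 0.421 (n = 9) in *Eed-cKO* (exact two-sided permutation test, p = 0.18). Without control embryo 5 the same test gave p = 0.451. Counting only cells with at least 5 UMIs of *Agrp*, the shares were 0.582% ± 0.261 and 0.254% ± 0.271 (p = 0.0400), and 4 of 9 *Eed-cKO* embryos held no such cell. This was the only setting of the share test under 0.05. At 2 or more UMIs the shares were 0.720% ± 0.375 and 0.403% ± 0.377 (p = 0.135). With at least 1 UMI, p was 0.229 by litter and 0.245 without the largest library. With cells thinned to 1000, 2000 and 4000 UMIs, which left out 786, 2450 and 6027 shallower cells, p was 0.0543, 0.122 and 0.297 for the share with at least 1 UMI.

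**Figure D2:**
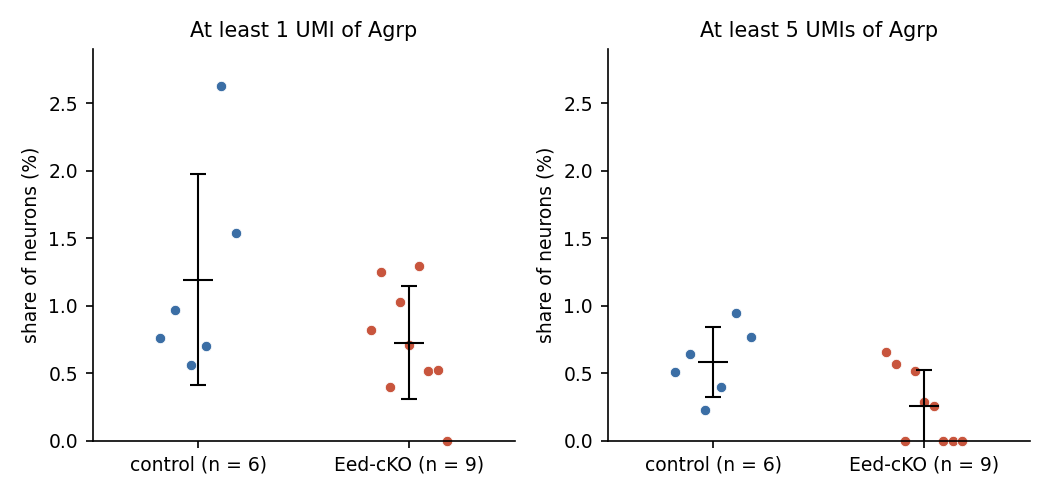
Share of neurons (%) that had at least 1 UMI (left) or at least 5 UMIs (right) of *Agrp* in each control (blue) and *Eed-cKO* (red) embryo, with mean ± SD (black; bars are cut at 0). On the left, control embryo 5 stands at 2.63% and the other embryos of both genotypes lie between 0 and 1.54%. On the right, 4 *Eed-cKO* embryos are at 0.

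Summed over all neurons, *Agrp* stood at 27.6 ± 10.7 CPM in control and 11.1 ± 11.4 in *Eed-cKO*. The log2 fold change was -1.25 ± 0.57 and did not pass over all genes (edgeR, adjusted p = 0.169), whereas limma-voom gave -2.18 (adjusted p = 0.00891). *Npy* stood at 117 ± 52.9 and 85.8 ± 54.9 (adjusted p = 0.594). Fewer *Agrp* neurons and less *Agrp* per neuron cannot be told apart in such sums. Among *Agrp* neurons the level of *Agrp* itself ran from 1223 to 3176 CPM in control embryos, with a median of 1986, and was 2951, 1973, 1296, 664 and 1375 in *Eed-cKO* embryos 1, 2, 4, 5 and 6, so the genotypes overlapped. Values by embryo are CPM of all UMIs in those cells, and means ± SD beside a fit are scaled by edgeR's TMM factors as well. *Eed-cKO* embryos 3, 7 and 8 had 3, 2 and 3 *Agrp* neurons and entered no test that needed at least 5. None of these 8 cells had 5 or more UMIs of *Agrp*, and 1 of them had a UMI of *Npy*.

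What set *Agrp* neurons apart in control embryos was tested against the other neurons of the same 6 embryos. Of 14531 genes, 526 differed (3.62%), of which 139 were higher (0.957%) and 387 lower (2.66%) in *Agrp* neurons (edgeR quasi-likelihood test on sums per embryo with the embryo as a block, adjusted p of 0.05 or less), and 73 and 335 of them had the same direction in all 6 embryos. With libraries scaled to their totals alone the split was 217 higher and 234 lower, and the median over all genes moved from -0.22 to -0.07 on the log2 scale, so the lower side depends on the scaling. The spread between embryos was pooled over all genes in this fit. An exact test on 6 embryos alone cannot go below a two-sided p of 0.0312, and on 5 embryos not below 0.0625.

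*Npy* and *Cited1* were far higher in *Agrp* neurons, and the 1 gene with a larger fitted rise than *Npy*, *Tm4sf4*, rested on 11 UMIs. In *Agrp* neurons of control embryos *Npy* ran from 1417 to 5573 CPM with a median of 4401, against 26.5 to 108 in other neurons. The fitted log2 fold change was 6.09 ± 0.57 (SE; 6 of 6 embryos; adjusted p = 0.00603), and without the largest library it was 5.63 and did not pass (adjusted p = 0.116). *Cited1* ran from 1063 to 3286 with a median of 2155 in *Agrp* neurons and from 33.1 to 68.1 in other neurons. Its log2 fold change was 5.14 ± 0.12, and its lowest value in *Agrp* neurons was above its highest in other neurons.

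Receptors formed the next group. Of 20 tested receptor genes known from adult *Agrp* neurons, 5 were higher and 2 lower, against 0.957% and 2.66% of all genes. The lists named here and below were chosen with earlier results of these data known. Their counts are therefore a description and not a test of enrichment. *Calcr* was higher by 3.17 ± 0.18 on the log2 scale (528 ± 303 against 56.5 ± 10.9 CPM, SD, n = 6). *Acvr1c*, which encodes the activin receptor-like kinase ALK7, was higher by 3.86 ± 0.46 and *Npy2r*, an inhibitory receptor for neuropeptide Y, by 2.87 ± 0.39. *Mc3r*, a melanocortin receptor, passed on 6 UMIs in 6 cells, and *Nr3c1*, the glucocorticoid receptor, was higher by 1.64 ± 0.39 in 4 of 6 embryos. The cannabinoid receptor gene *Cnr1* was lower by -1.34 ± 0.22 and the insulin-like growth factor receptor gene *Igf1r* by -1.43 ± 0.28, in 6 of 6 embryos each. Outside that list, *Ghr*, the growth hormone receptor, was higher by 4.21 ± 0.32. It ran from 101 to 359 CPM in *Agrp* neurons and from 7.39 to 13.5 in other neurons, so the sets did not overlap.

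*Lepr*, the leptin receptor, had 0 UMIs in all 119 *Agrp* neurons. It was not among the genes called lower than in other neurons in either genotype, so its absence is not shown. *Ghsr*, the ghrelin receptor, had 4 UMIs in 2 cells, both *Eed-cKO*. *Insr*, the insulin receptor, stood at 52.9 ± 24.9 against 65.8 ± 9.88 CPM in control (adjusted p = 0.726). Of 27 signalling genes tested, *Irs4*, an insulin receptor substrate, was the 1 that was higher, by 2.04 ± 0.20, where 0.957% of all genes were higher.

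Among 19 transcription factors linked to arcuate neurons, 3 were higher and 2 lower, against 0.957% and 2.66% of all genes. *Nr5a2*, a nuclear receptor, passed on 5 UMIs in 4 cells. *Tbx3*, a regulator of arcuate neuron identity, was higher by 2.81 ± 0.33 and *Foxo1*, which acts downstream of insulin, by 2.01 ± 0.36. *Nkx2-1*, which marks the ventral hypothalamus from early stages, was lower by -2.04 ± 0.32 in 6 of 6 embryos. *Isl1*, which is needed for arcuate peptide neurons, stood at 174 ± 61.9 in *Agrp* neurons and 156 ± 34.6 in other neurons and did not pass (adjusted p = 0.81). *Sox14*, also on that list, and *Nr4a2*, a factor best known from dopaminergic neurons, had 0 UMIs in the 77 control cells. Set against a floor of 3 UMIs over the group, they were at least 2.85-fold and at least 7.71-fold lower than in other neurons. Both passed the gene filter through the other neurons alone. The bounds use sums pooled over embryos and do not measure the spread between them.

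Further genes by the size of their rise included several with no list of their own. *Tm4sf4*, a tetraspanin-like membrane protein, was higher by 6.12 ± 0.69, with its 11 UMIs in 8 cells. *Pcdh20*, a protocadherin, was higher by 3.26 ± 0.36, *Esyt3*, an extended synaptotagmin, by 3.15 ± 0.39 and *Rrad*, a small GTPase, by 3.13 ± 0.45. *Gpc4*, a glypican, rose by 2.41 ± 0.46, *Gpx3*, a secreted glutathione peroxidase, by 2.32 ± 0.23 and *Tmem255a* by 2.31 ± 0.18. *Dlk1*, the imprinted Notch-family ligand, rose by 1.95 ± 0.13 and *Prune2* by 1.92 ± 0.29. Each of these was higher in 6 of 6 control embryos.

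**Figure D3:**
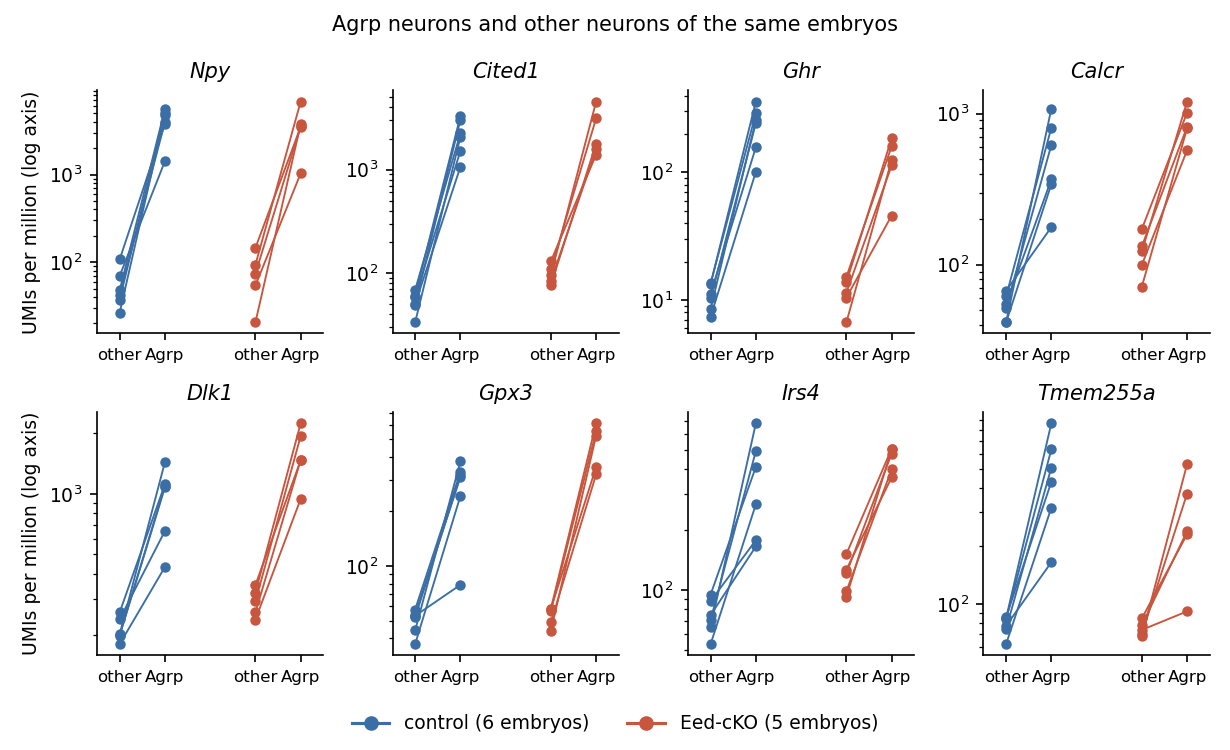
CPM (log axis) of 8 genes in other neurons and in *Agrp* neurons of the same embryo, joined by a line, in 6 control (blue) and 5 *Eed-cKO* (red) embryos. All lines rise. *Ghr*, for example, climbs from between 6.68 and 15.2 in other neurons to between 45.8 and 359 in *Agrp* neurons.

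The secretory machinery of peptide neurons moved in part. Of 17 tested genes of peptide processing and dense core vesicles, 5 were higher and 2 lower, against 0.957% and 2.66% of all genes. *Baiap3*, which acts in dense core vesicle release, was higher by 1.36 ± 0.23, *Ptprn*, a protein of the vesicle membrane, by 0.93 ± 0.19, *Resp18* by 0.87 ± 0.11, *Scg2*, secretogranin II, by 0.80 ± 0.11 and *Pcsk1n*, an inhibitor of the prohormone convertase PC1, by 0.71 ± 0.10. *Cpe*, carboxypeptidase E, was lower by -0.51 ± 0.11 and *Cadps2*, a priming factor of vesicles, by -2.86 ± 0.69. The convertase genes *Pcsk1* and *Pcsk2*, which cut peptide precursors, did not pass (adjusted p = 0.575 and 0.231).

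Of 30 tested neuropeptide genes, *Agrp* itself left out, 2 were higher and 6 lower, against 0.957% and 2.66% of all genes. *Npy* was followed by *Nmb*, neuromedin B, at 1.69 ± 0.50. *Cck*, cholecystokinin, was lower by -1.57 ± 0.28 and *Tac1*, the substance P precursor, by -2.08 ± 0.37, each in 5 of 6 embryos. Neither passed without the embryo as a block (adjusted p = 0.269 for *Cck* and 0.195 for *Tac1*). Against GABAergic other neurons alone, those with a UMI of *Slc32a1* or *Gad2*, *Cck* was at -0.03. *Oxt* and *Pmch* had 1 UMI each and *Avp* 3 UMIs in the 77 control cells, while *Hcrt* had 0. *Hcrt* passed the gene filter through the other neurons alone and was at least 4.66-fold lower by the same floor. Several peptide sums rested on 1 cell. *Ghrh* had 350 UMIs in control *Agrp* neurons, 320 of them in 1 cell, and *Cartpt* had 125, of which 117 were in 1 cell.

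The transporters that mark GABAergic and glutamatergic neurons spread widely between embryos. In control, *Slc32a1*, the vesicular GABA transporter, was detected in 54.0% ± 21.8 of *Agrp* neurons and 28.7% ± 3.85 of other neurons (5 of 6 embryos; exact sign-flip test, p = 0.0938). *Slc17a6* was detected in 21.8% ± 20.3 and 49.1% ± 1.60 (lower in 5 of 6; p = 0.0625). Both transporters were found together in 4.70% ± 7.28 and 4.90% ± 2.22. After adjustment over the 8 shares compared, none passed in either genotype. By level, *Gad1*, a GABA-synthesizing enzyme, was higher by 0.45 ± 0.14 (adjusted p = 0.0436), a call that was lost on leaving out any of 5 of the 6 embryos and without the block (adjusted p = 0.532).

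Of 20 synapse genes tested in control, 5 were lower and none higher, against 2.66% and 0.957% of all genes. The lower side depends on the scaling, since 387 genes in all were lower with TMM and 234 with library totals alone. *Gria2*, an AMPA receptor subunit, was lower by -0.60 ± 0.12 and *Syt4*, a synaptotagmin, by -0.56 ± 0.13, in 6 of 6 embryos each, and *Syt4* did not pass without the block (adjusted p = 0.104). Of 10 tested PRC2 genes and 19 PRC1 genes, none passed, where 3.62% of all genes did.

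The same comparison was made in the 5 *Eed-cKO* embryos with at least 5 *Agrp* neurons, 34 cells in all. Of 14080 genes, 288 differed (2.05%), of which 59 were higher (0.419%) and 229 lower (1.63%), and 30 and 210 of these had the same direction in all 5 embryos. Without *Eed-cKO* embryo 2, which held 11 of the cells, the count was 147, and in cells with at least 4000 UMIs it was 58. Scaled to library totals the split was 105 higher and 104 lower. The embryos differ from the control embryos, so the 2 lists have no sample in common. Of the raised genes, 43 were raised in both genotypes, 30.9% of the control list and 72.9% of the *Eed-cKO* list, and 141 genes were lower in both, 36.4% and 61.6%. No gene passed in opposite directions.

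*Cited1* was again far higher, at 2150 ± 913 CPM in *Agrp* neurons and 111 ± 23.3 in other neurons (log2 fold change 4.22 ± 0.18, 5 of 5 embryos). By embryo, *Cited1* in *Agrp* neurons was 4565, 3146, 1572, 1787 and 1400 in embryos 1, 2, 4, 5 and 6, all above the highest value of other neurons, 130. *Npy* was at 3504, 6799, 3535, 1031 and 3749 in the same embryos and between 20.6 and 146 in other neurons. The log2 fold change of *Npy*, 5.27 ± 0.68, did not pass over all genes with edgeR (adjusted p = 0.0662, higher in 5 of 5 embryos) whereas it passed with DESeq2 (adjusted p = 2.82e-33), with limma-voom (adjusted p = 2.74e-06) and without the embryo as a block (adjusted p = 0.00184).

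Of 19 receptor genes tested in *Eed-cKO*, 4 were higher and 2 lower, and of 17 transcription factors 2 were higher and 2 lower. Over all genes 0.419% were higher and 1.63% lower. *Npy2r* was higher by 4.13 ± 0.49, *Ghr* by 3.08 ± 0.48, *Calcr* by 2.58 ± 0.21 and *Nr3c1* by 2.08 ± 0.47, in 5 of 5 embryos each, and *Ghsr* passed on 4 UMIs in 2 cells. *Cnr1* and *Igf1r* were lower, by -1.65 ± 0.39 and -2.21 ± 0.48, and without embryo 2 *Cnr1* did not pass (adjusted p = 0.0646). *Tbx3* was higher by 1.57 ± 0.36 and *Foxo1* by 1.94 ± 0.53, each in 4 of 5 embryos, and *Dlx1* and *Dlx2*, factors of GABAergic development, were lower by -2.03 ± 0.57 and -3.58 ± 1.07. The calls for *Foxo1* and *Dlx1* were lost on leaving out any of 3 and of 4 single embryos, and that for *Tbx3* without embryo 4 (adjusted p = 0.217). *Esyt3*, *Gpx3*, *Gpc4*, *Prune2*, *Dlk1*, *Irs4* and *Tmem255a* were higher by 2.91, 2.79, 2.64, 2.26, 2.09, 1.63 and 1.62 on the log2 scale.

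Of 17 peptide processing genes tested in *Eed-cKO*, 5 were higher in *Agrp* neurons and none lower, against 0.419% and 1.63% of all genes. They were *Baiap3* (1.58 ± 0.30), *Scg2* (1.29 ± 0.18), *Vgf* (1.21 ± 0.31), *Resp18* (1.13 ± 0.17) and *Ptprn* (1.08 ± 0.25). *Ptprn* did not pass without embryo 2 or 6 (adjusted p = 0.092 and 0.0806). *Vgf* did not pass without embryo 6 (0.70, adjusted p = 0.545). *Slc17a6* was lower by -1.44 ± 0.26, *Cck* by -3.16 ± 0.47 and *Pomc*, the precursor of the melanocortins, by -2.36 ± 0.54. Without embryo 1 *Pomc* was at -1.53 and did not pass, nor did it without the block (adjusted p = 0.723). *Cck* and *Pomc* belonged to the 4 of 28 tested neuropeptide genes that were lower. A further 2 were higher, *Npy* not among them. Over all genes 0.419% were higher and 1.63% lower. *Gria2* and *Syt4* were lower by -0.67 and -0.72, and neither passed with libraries scaled to their totals or on leaving out any of 4 of the 5 embryos (adjusted p up to 0.094 and 0.254). *Tfap2b* and *Gata3*, factors of more posterior or other neurons, had 0 UMIs in *Agrp* neurons. They passed the gene filter through the other *Eed-cKO* neurons alone, which held 85.2 and 50.3 CPM. Set against the floor of 3 UMIs in pooled sums, they were at least 6.32-fold and at least 3.73-fold lower. These bounds do not measure the spread between embryos.

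**Figure D4:**
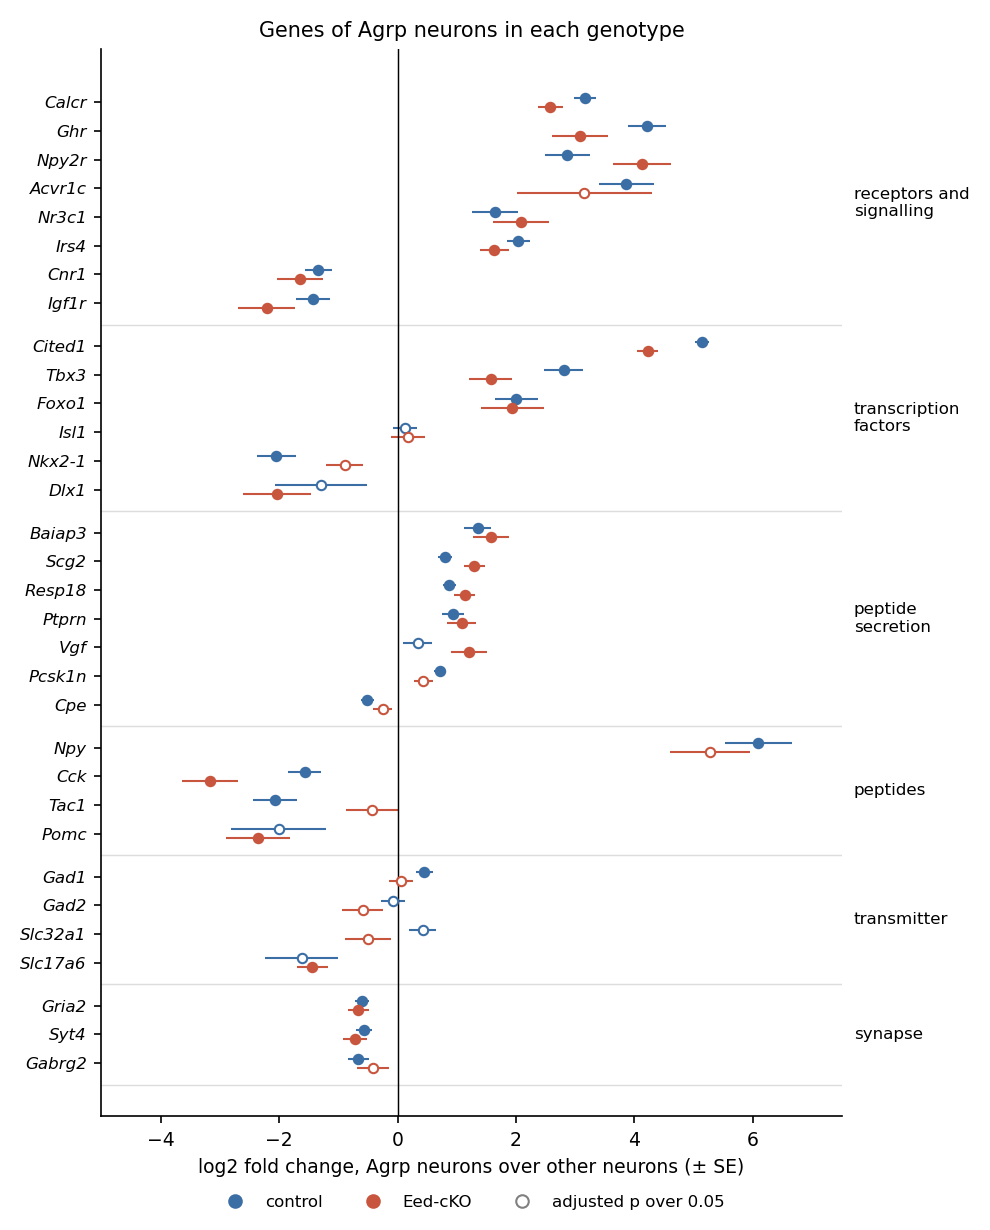
Log2 fold changes (± SE) of *Agrp* neurons over other neurons of the same embryos, in control (blue, 6 embryos) and *Eed-cKO* (red, 5 embryos), for genes grouped by role. Open points had an adjusted p over 0.05. *Cited1*, at 5.14 and 4.22, and *Npy*, at 6.09 and 5.27, lie farthest to the right.

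*Npy* neurons without *Agrp* are the cells most like *Agrp* neurons by the marker pair, and they were compared in 11 embryos. Of 11791 genes, 670 differed (5.68%), of which 115 were higher (0.975%) and 555 lower (4.71%) in *Agrp* neurons, and scaled to library totals 205 were higher and 317 lower. *Cited1* stood at 2125 ± 823 CPM against 186 ± 124 (log2 fold change 3.59 ± 0.33, 11 of 11 embryos). *Ghr* was higher by 3.25 ± 0.31, *Dlk1* by 2.07 ± 0.12, *Gpc4* by 1.95 ± 0.42, *Tmem255a* by 1.90 ± 0.18, *Irs4* by 1.84 ± 0.18, *Baiap3* by 1.42 ± 0.20 and *Scg2* by 1.22 ± 0.12, also in 11 of 11. *Foxo1* was higher by 2.42 ± 0.38, *Tbx3* by 2.12 ± 0.27, *Npy2r* by 1.97 ± 0.33, *Calcr* by 1.92 ± 0.15 and *Gpx3* by 1.73 ± 0.18. *Sst*, the peptide of a large class of interneurons, was lower by -4.62 ± 0.78 in 11 of 11, and 55 of the 58 UMIs of *Sst* in control *Agrp* neurons came from 1 cell. *Cck* was lower by -2.40 ± 0.56, a call that was lost without control embryo 2 or *Eed-cKO* embryo 6. Without the embryo as a block 424 genes passed in place of 670.

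The genotypes were then compared within *Agrp* neurons, over 6 control and 5 *Eed-cKO* embryos. Of 7775 genes tested, 6 were higher (0.0772%) and 3 lower (0.0386%) in *Eed-cKO*. The count was small and unsteady. It was 2 with DESeq2, namely *Npas4* and *Rps13*, 0 with limma-voom, 0 in cells with at least 2 UMIs of *Agrp*, where 1 *Eed-cKO* embryo remained, and 21 without *Eed-cKO* embryo 4. At an unadjusted p under 0.05 there were 413 genes with edgeR and 433 with limma-voom.

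*Cited1* and *Npy* did not differ detectably. *Cited1* had its median at 2155 CPM in control and 1787 in *Eed-cKO*, with a fitted log2 fold change of 0.06 ± 0.20 (adjusted p = 1). *Npy* had its median at 4401 and 3535 and a log2 fold change of -0.20 ± 0.46 (adjusted p = 1). Both changed sign under some alternatives.

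Immediate early genes, which neurons switch on within minutes of stimulation and which the dissociation of tissue can also induce, held 4 of the 6 higher genes. Of 8 tested, 4 were higher in *Eed-cKO* *Agrp* neurons, where 0.0772% of all genes were. All 8 had a positive log2 fold change, as did 3487 of 7775 genes. Their median was 1.53, against -0.06 over all genes. *Fos* was 73.0, 0, 39.4, 172, 245 and 62.7 CPM in control embryos 1 to 6 and 507, 400, 239, 389 and 550 in *Eed-cKO* embryos 1, 2, 4, 5 and 6, so the groups overlapped at 1 pair of embryos. Its log2 fold change was 1.67 ± 0.31 (adjusted p = 0.000201), and it did not pass with DESeq2 (adjusted p = 0.134), with limma-voom (0.0605), with the filterByExpr gene filter (0.178), with adjusted deviances (0.484) or without cells of high doublet scores (0.984). *Npas4*, at 0 to 63.8 in control and 49.98 to 461 in *Eed-cKO*, was higher by 2.31 ± 0.42 (adjusted p = 0.000201), and did not pass with limma-voom (0.163) or in cells with *Npy* (0.822). *Jun* was higher by 1.40 ± 0.31 (adjusted p = 0.00785) and *Fosb* by 2.74 ± 0.56 (adjusted p = 0.00192). *Fosb* rested on embryo 1, at 692, without which it was 1.90 and did not pass (adjusted p = 0.623), and *Jun* was lost on leaving out any of 4 single embryos.

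The other neurons of the same embryos showed the same direction. Of 15294 genes tested in them, 5.83% were higher and 4.59% lower in *Eed-cKO* (10.4% in all). Among these neurons 9 of 9 immediate early genes were higher in *Eed-cKO*, with a median log2 fold change of 1.06. *Fos* was higher there by 1.11 ± 0.14, *Npas4* by 1.12 ± 0.11, *Jun* by 0.75 ± 0.13 and *Fosb* by 1.62 ± 0.28. The genotype difference in *Agrp* neurons minus that in other neurons did not pass for any of them, and for *Fos* it was 0.53 ± 0.32 (adjusted p = 1). It was positive for 9 of 9 immediate early genes, with a median of 0.53, against 6455 of 15315 genes and a median of -0.14. Within *Eed-cKO*, 1 of 9 was higher in *Agrp* neurons than in other neurons and none lower, against 0.419% and 1.63% of all genes.

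Of the lower genes, *Rps13*, a ribosomal protein of the small subunit, ran from 400 to 893 CPM in control and from 138 to 325 in *Eed-cKO* without overlap (log2 fold change -1.41 ± 0.26, adjusted p = 0.000201), and did not pass with limma-voom (0.0605) or with sex as a covariate (0.132). *Arl6ip1*, a shaping protein of the endoplasmic reticulum, ran from 453 to 737 and from 213 to 340, also without overlap (-1.12 ± 0.26, adjusted p = 0.0184). Both were lower in the other neurons too, by -1.09 ± 0.09 and -1.07 ± 0.09. *Gabrb2*, a subunit of the GABA-A receptor, ran from 113 to 492 and from 45.8 to 92.2 (-1.86 ± 0.42, adjusted p = 0.0127), and in other neurons it was lower by -0.64 ± 0.11. *Cnot6*, a deadenylase of the CCR4-NOT complex, was higher, at 110 to 197 in control and 214 to 619 in *Eed-cKO* (1.26 ± 0.31, adjusted p = 0.0396), while in other neurons it stood at 192 ± 20.5 and 203 ± 10.1 (adjusted p = 0.561), and the difference between the cell sets, 1.05 ± 0.31, did not pass (adjusted p = 0.73). The calls of *Cnot6*, *Arl6ip1* and *Gabrb2* were lost on leaving out any of 7, 5 and 3 single embryos. *Crh*, the remaining raised gene, had 15 UMIs, all in 1 cell of *Eed-cKO* embryo 6, and 0 in control.

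**Figure D5:**
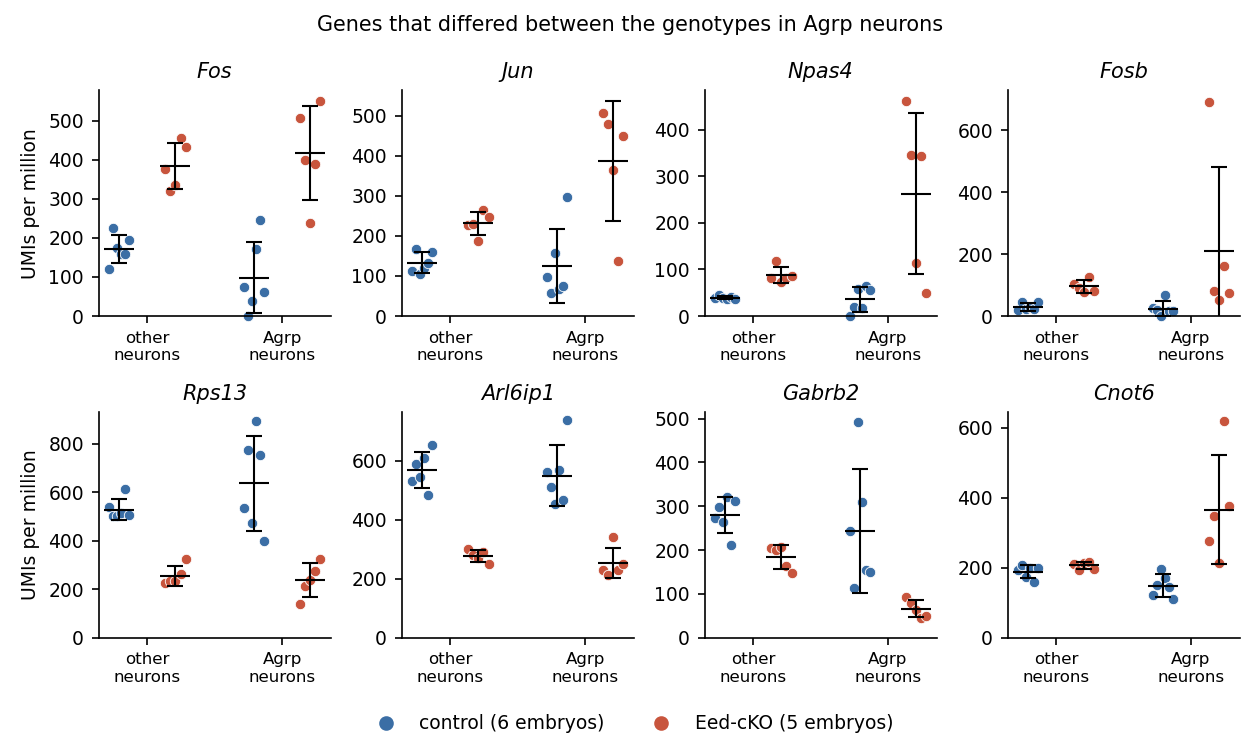
CPM in each control (blue) and *Eed-cKO* (red) embryo, for other neurons and *Agrp* neurons, with mean ± SD (black; bars are cut at 0). The 4 immediate early genes lie higher in *Eed-cKO* in both cell sets, and *Rps13* and *Arl6ip1* lie lower in both. In *Agrp* neurons *Cnot6* is 110 to 197 in control and 214 to 619 in *Eed-cKO*. That call was lost on leaving out any of 7 single embryos, and the difference of *Cnot6* between the cell sets did not pass.

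Tested directly, 2 of 15315 genes (0.0131%) had a genotype difference in *Agrp* neurons that was unlike that in other neurons, namely *Crh*, more positive in *Agrp* neurons (0.00653%), which rests on the cell named above, and *Vim*, more negative (0.00653%). On simulated counts this test called 10%, 8.33%, 46% and 46% of genes changed by 1, 2, 3 and 4 on the log2 scale. The low count therefore does not show that both cell sets responded alike. *Vim*, vimentin, a filament protein of progenitors and glia, stood at 210 ± 141 CPM in control and 117 ± 123 in *Eed-cKO* *Agrp* neurons (log2 fold change -0.75 ± 0.39, adjusted p = 0.924), and at 77.4 ± 16.3 and 171 ± 42.8 in other neurons (1.14 ± 0.20). The difference of -1.94 ± 0.39 (adjusted p = 0.0062) did not pass without control embryo 1 or *Eed-cKO* embryo 1 or 4, nor with DESeq2 or limma-voom (adjusted p = 1 and 0.0735). The summed 8 astrocyte markers ranged from 51.5 to 1168 CPM in control *Agrp* neurons and from 79.98 to 749.8 in *Eed-cKO*, with *Gfap* at 0 in both, and their part in the result was not tested. In other neurons *Cited1* was higher in *Eed-cKO* by 0.83 ± 0.17 (adjusted p = 0.00815). For *Cited1* the difference between the cell sets was -0.84 ± 0.20 and did not pass (adjusted p = 0.174), but it passed on leaving out control embryo 3 or 5 or *Eed-cKO* embryo 1 (adjusted p = 0.00169, 0.0107 and 0.000416).

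Hox genes are silent in the normal forebrain and are classic targets of PRC2. Any of 34 measured Hox genes was detected in 0 of 77 control *Agrp* neurons and in 9 of 42 *Eed-cKO* *Agrp* neurons. Of these 9 cells, 6 were among the 17 with a single UMI of *Agrp* (35.3%), and 2 were among the 16 with 5 or more (12.5%). These counts pool embryos. Embryo 5 gave 4 of the 9 and had 3 of its 5 *Agrp* neurons at 1 UMI. Embryo 2 gave none and had 1 of its 11 at 1 UMI, so the class of a cell and its embryo cannot be told apart. By embryo the share was 20%, 0%, 25%, 80.0% and 0% in *Eed-cKO* embryos 1, 2, 4, 5 and 6, and in other neurons of these embryos it lay between 35.9% and 61.9%. The mean was 25% ± 32.8 in *Agrp* neurons and 47.3% ± 10.0 in other neurons, lower in 4 of 5 embryos, and the difference did not pass (exact sign-flip test, p = 0.25, with 0.0625 the smallest possible). By level, 31 Hox genes were tested in *Agrp* neurons against other neurons of *Eed-cKO*, with a median log2 fold change of -1.95, and 2 were positive. Over all 14080 genes of that fit the median was -0.42, 3927 were positive and 1.63% were called lower. The part of low counts in the Hox values was not tested. The 1 Hox gene that passed, *Hoxc10*, named after its value was seen, stood at 10.9 ± 18.1 and 78.3 ± 11.9 CPM (-2.64 ± 0.73, lower in 5 of 5 embryos, adjusted p = 0.0179). *Hoxc13* was detected most often, with 16 UMIs in 5 cells, followed by *Hoxa5* and *Hoxa10* with 7 UMIs in 4 cells each. No Hox gene reached the filter of the genotype comparison within *Agrp* neurons.

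The other marker shares within *Agrp* neurons were compared over the same 11 embryos, with 8 shares in the family. *Npy* was detected in 63.3% ± 14.6 of control and 80.9% ± 13.3 of *Eed-cKO* *Agrp* neurons (exact permutation test, p = 0.0693, adjusted p = 0.277). *Cartpt*, a peptide normally paired with *Pomc* in the neighbouring arcuate neurons, was detected in 13.5% ± 10.3 and 45.3% ± 17.1 (p = 0.0130, adjusted p = 0.104). In other neurons the *Cartpt* share was 4.72% ± 0.773 and 13.9% ± 4.58. *Slc32a1*, at 54.0% and 42.3%, and *Slc17a6*, at 21.8% and 38%, did not pass (adjusted p = 0.394 each), and *Pomc*, at 4.99% and 15.1%, did not either (adjusted p = 0.394).

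Markers of other cell types were looked for over the same *Agrp* neurons, and their part in the results was not tested. Astrocyte markers were the most abundant, with 7 of 8 detected in control and 6 of 8 in *Eed-cKO* at the summed levels given beside *Vim*. In other neurons their sum ranged from 181 to 476 CPM in control and from 267 to 801 in *Eed-cKO*. Of 6 leptomeningeal fibroblast markers, 2 were detected in control (0 to 18.9 CPM in sum) and 4 in *Eed-cKO* (0 to 298), where *Dcn* and *Lum* were at 0, and in other *Eed-cKO* neurons the sum ran from 58.0 to 480. Of 6 markers of cycling progenitors, 6 were detected in control (0 to 90.4 CPM) and 2 in *Eed-cKO* (0 to 49.98). Of 5 ependymal markers the counts were 1 (0 to 24.3 CPM) and 3 (0 to 160), of 5 tanycyte markers 3 and 2, and of 5 markers of oligodendrocyte precursors 2 and 2. Of 7 endothelial markers 1 (0 to 18.9 CPM) and 4 (0 to 138) were detected, of 7 pericyte markers 2 and 1, of 8 microglial markers 4 (0 to 78.4 CPM) and 0, and of 4 measured pituitary markers none in either.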

How the data were processed

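The deposited UMI counts per cell and gene were made by the authors from droplet libraries (SureCell 3′ chemistry, papain dissociation). The submitters' processing notes name STAR 2.5.2b, SAMtools 1.3 and the genome build mm10, and no cell in the table has under 600 UMIs. The table held 16510 genes, 14121 cells and 74487617 UMIs. Counts were summed over the *Agrp* neurons and over the other neurons of each embryo, and embryos with at least 5 *Agrp* neurons entered the fits, with sums of 21689 to 188038 UMIs over *Agrp* neurons. Genes with at least 15 UMIs summed over both cell sets or genotypes of the embryos compared, and at least 2 in 1 sum, were tested with edgeR 4.0.16 (quasi-likelihood test, TMM scaling, robust estimation, Benjamini-Hochberg adjusted p of 0.05) in R 4.3.3, with the embryo as a block where both cell sets of an embryo were compared, since both came from the same animal. Robust estimation was chosen after the calls of 4 settings of the tool had been seen, because without it some calls rested on 1 cell. Shares were compared by exact two-sided permutation or sign-flip tests (scipy 1.17.1). Alternatives included DESeq2 1.42.0 and limma-voom (limma 3.58.1). A result that names a withheld item is not reported here. The members and gene lists were chosen with earlier results of these data known. Genes were named from those lists and from the 10 largest rises and falls among called genes with 1 direction in every embryo, or with no overlap between genotypes. On simulated counts for the genotype comparison (7390 genes), 18.4%, 47.9%, 74.4% and 90.9% of genes changed by 1, 2, 3 and 4 on the log2 scale were called, and 6.31% of calls were false. For *Agrp* against other neurons 10.7% of calls were false in control (14372 genes) and 13.4% in *Eed-cKO* (13939 genes), above the nominal 5%.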

Additional observations from a re-analysis of the deposited data

Results flagged for a closer look

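Of 116 sets of values over the embryos of a genotype, 20 held an embryo far from the others by Dixon's criterion. Chance gives this in about 1 of 20 sets of normally distributed values. These values come from few cells and many are 0, so the count cannot be set against that rate. For *Acvr1c*, *Crh*, *Sst* and *Tm4sf4* in *Eed-cKO*, all embryos but 1 were at 0. Most lay in *Eed-cKO*, where 5 embryos with 5 to 11 *Agrp* neurons were measured. In CPM over *Agrp* neurons, embryo 6 stood high for *Acvr1c* (75.0), *Crh* (375), *Tm4sf4* (75.0) and *Cpe* (2424) and low for *Nr3c1* (49.98). Embryo 4 stood high for *Arl6ip1* (340), *Cnr1* (164), *Pcdh20* (101) and *Tac1* (453). Embryo 2 stood high for *Pcsk1n* (3279) and *Sst* (53.3) and low for *Npy2r* (80.0). Embryo 1 stood high for *Fosb* (692) and embryo 5 for *Cck* (115). In control, *Cck* was high in embryo 6 (188), *Fosb* in embryo 4 (68.7), *Sst* in embryo 4 (944) and *Vim* in embryo 1 (487). The share of *Agrp* neurons with *Sst* was 9.09% in *Eed-cKO* embryo 2 and 0 in the others, and that with *Pomc* was 20% in control embryo 3.

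Beyond single embryos, the genotype difference in *Agrp* neurons was unlike that in other neurons for *Vim*, by -1.94 on the log2 scale, and for *Crh*, with a fitted value of 11.46 that rests on 15 UMIs of 1 cell and is no measure of size. Cells outside the main measurement also held *Agrp*, namely 9 of 2999 cells with under 3 panel genes.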

How the results depend on the processing

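Few *Agrp* neurons per embryo limited every comparison. The share of *Agrp* neurons differed by -0.328 percentage points at 5 or more UMIs of *Agrp*, and at 1 or more UMIs by -0.591 to -0.178 on dropping single embryos. The 9 genes of the genotype comparison in *Agrp* neurons became 3 with filterByExpr, 2 with DESeq2, 0 with limma-voom, 0 at 2 or more and at 5 or more UMIs of *Agrp* and in embryos with 10 or more *Agrp* neurons, 3 without high doublet scores, 3 with adjusted deviances with or without robust estimation, 4 in cells with *Npy*, 15 with at least 1 *Agrp* neuron per embryo, 5 with sex as a covariate and 6 to 21 with an embryo left out. The 526 genes in control became 3981 with limma-voom, 172 in embryos with 10 or more *Agrp* neurons and 399 to 536 with an embryo left out. The 288 in *Eed-cKO* became 443 with DESeq2, 3864 with limma-voom, 58 in cells with at least 4000 UMIs and 147 to 262 with an embryo left out, and could not be fitted at 2 or more UMIs, 5 or more UMIs or 10 or more cells, with 1 embryo left. The cause was not tested. The 2 genes whose genotype difference was unlike that in other neurons became 0 with DESeq2, at 2 or more and 5 or more UMIs and without high doublet scores, 84 with limma-voom, 16 in embryos with 10 or more cells, 8 without robust estimation, 13 with adjusted deviances as well, 5 in cells with *Npy* and 1 to 5 with an embryo left out. The 670 genes against *Npy* neurons without *Agrp* became 325 at 5 or more UMIs, 128 in embryos with 10 or more cells, 348 in cells with at least 4000 UMIs, 424 without the replicate block and 530 to 664 with an embryo left out. Without the replicate block, 480 genes passed in control and 422 in *Eed-cKO*. *Agrp* over all neurons was at -2.18 with limma-voom.

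Some values changed sign, none of them past the threshold but the last. Between genotypes, *Npy* was at 0.022 with 2 or more UMIs of *Agrp*, 0.27 without high doublet scores, 0.64 in embryos with 10 or more cells, 0.053 without the largest library and -0.54 to 0.037 with an embryo left out. *Cited1* was at -0.080 with 2 or more UMIs, -0.28 in cells with *Npy*, -0.50 with at least 1 cell per embryo, -0.066 with litters in place of embryos and -0.17 to 0.19 with an embryo left out. Thinned to 2000 UMIs per cell, with 5 control and 2 *Eed-cKO* embryos left, the share with both transporters differed by -0.870 percentage points (4.70% in control and 15.5% in *Eed-cKO* without thinning) and that with *Sst* by 1.56 (6.64% and 1.82%). *Gad1* in control was at -0.17 in embryos with 10 or more cells and -0.59 against GABAergic other neurons alone (adjusted p = 0.000521). Those neurons were chosen for a UMI of *Slc32a1* or *Gad2* and the *Agrp* neurons were not. The choice favours GABA genes in the other neurons, so this value cannot show that *Gad1* is lower in *Agrp* neurons. Alternatives without the largest library, in cells with *Npy*, with 1 cell per embryo and with the other edgeR settings were chosen after seeing the data.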
